A study of Mus musculus with 4 samples.

Results

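Many liver genes are transcribed in a daily rhythm. The genes described here are those whose RNA was highest at ZT6, in the middle of the light phase. The authors' list of circadian genes, drawn from their RNA-seq of liver, gives each gene mm9 coordinates and the time point of its highest mean expression. They called a gene circadian when its expression differed between any pair of their time points, and describe no separate test of rhythm. Members were all genes of that list with peak time ZT6, without the genes of the clock itself (Arntl, Clock, Npas2, Per, Cry, Nr1d, Ror, Dbp, Tef, Hlf, Nfil3 and Bhlhe) and without Cyp genes. This gave 340 members of 1254 circadian genes, which fill 341 of 1256 rows of the list. The clock genes left out at ZT6 were Nr1d1 and Bhlhe41. The other 914 circadian genes, clock and Cyp genes included, served as the comparison, of which 220 peaked at ZT0, 487 at ZT12 and 205 at ZT18.

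CTCF is a zinc finger protein that binds DNA through a long recognition sequence and halts the cohesin ring as it extrudes chromatin loops. It is found at the borders of topological domains, at the anchors of loops and at some promoters. The circadian clock drives transcription in waves, and in liver the genes of the light phase include many that serve metabolism, autophagy and protein turnover.

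CTCF was mapped by ChIP-seq in livers of male, wild type C57BL/6 mice of 8 weeks, kept in 12 h of light and 12 h of dark with free access to food. Livers were taken at ZT0, when lights went on, and at ZT12, when lights went off, with 2 biological replicates at each time point. The authors describe the livers as the same samples that served for Hi-C, whose replicates were pools of livers. The deposited data are 1 list of peak positions for each time point, 10113 sites at ZT0 and 6799 at ZT12, and neither holds a peak height or a value for a replicate. The lists carry a label for a motif search and hold far fewer sites than the authors report for the experiment, so a gene without a listed site, or far from one, may still have CTCF nearby, and every count and distance refers to listed sites only. Differences between the lists therefore could not be set against the spread between replicates. Percentages are given with 95% Wilson intervals, which cover counting error only. No time point at ZT6 was mapped, so the lists flank the peak time of the members and do not include it.

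Most members had a CTCF site nearby. With the gene body extended by 50 kb on either side, 235 of the 340 members had a site in the ZT0 list (69.1%, interval 64.0 to 73.8%), where 71.5% of all circadian genes did. In the ZT12 list, 191 members had a site (56.2%, interval 50.9 to 61.4%), where 58.7% of all circadian genes did. In this window the members were thus close to the circadian genes as a whole in both lists. Among the other circadian genes, the shares were 72.4% (interval 69.4 to 75.2%) and 59.6% (interval 56.4 to 62.8%), and the intervals overlap those of the members. Within 50 kb of the start alone, whatever the gene length, 56.8% of members had a ZT0 site (interval 51.5 to 61.9%) against 64.0% of the others, a wider gap.

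By peak time, the members were closest to the genes peaking at ZT12, with 68.6% in the ZT0 list and 54.6% in the ZT12 list. Genes peaking at ZT0 had sites in 78.6% (interval 72.8 to 83.5%) and 65.0% (interval 58.5 to 71.0%) of cases, and genes peaking at ZT18 in 75.1% and 65.4%. Among all 22350 protein-coding genes of the annotation, fewer had a site, 58.2% and 48.1%. These differences between groups of genes were not tested, since genes are not replicates.

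**Figure D1:**
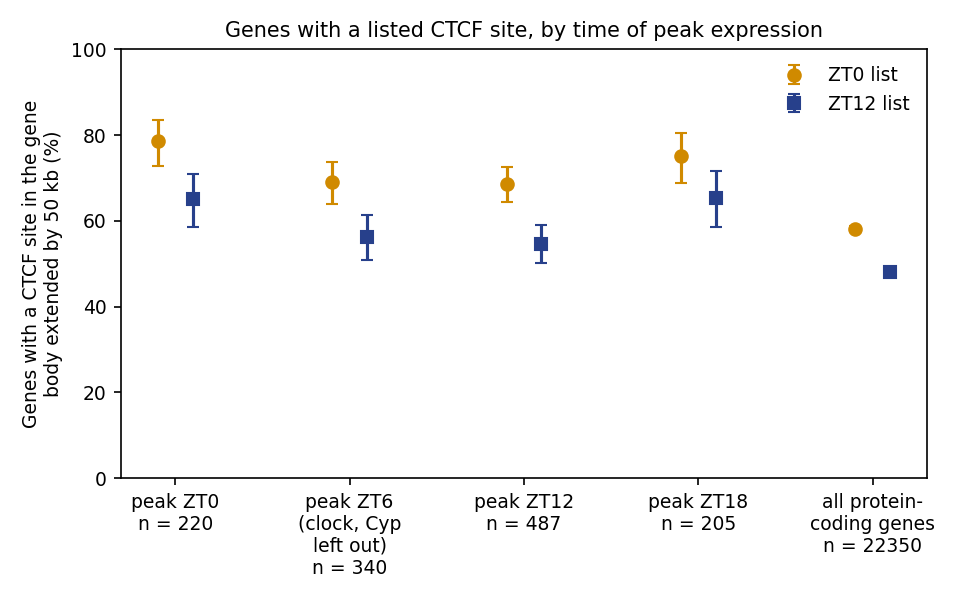
Percentage of genes with a listed CTCF site in the gene body extended by 50 kb, by time of peak expression, with 95% Wilson intervals as bars and the number of genes under each group. The members stand at 69.1% in the ZT0 list and 56.2% in the ZT12 list, and all groups of circadian genes lie above the 58.2% and 48.1% of protein-coding genes.

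The lists mostly marked the same members. A site was present in both lists for 182 members (53.5%) and in neither for 96 (28.2%, interval 23.7 to 33.2%), against 56.9% and 24.8% (interval 22.1 to 27.7%) of the other circadian genes. For 53 members (15.6%) only the ZT0 list held a site, and for 9 (2.65%) only the ZT12 list did. The shares among the other circadian genes were 15.5% and 2.74%.

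Counted by gene, the number of sites was smaller in the ZT12 list for 146 members (42.9%), where 41.5% of all circadian genes had fewer. It was larger for 21 members (6.18%), where the share of all circadian genes was 6.94%. Equal numbers above 0 were found for 77 members (22.6%) and for 25.8% of all circadian genes. Summed over their windows, members held 556 ZT0 and 372 ZT12 sites, a ratio of 0.669, and the ratio was 0.688 for the other circadian genes. The shorter ZT12 list gives a ratio below 1 in every group of genes compared here. The depth of the libraries, which could change the length of a list, was not tested.

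Members were longer than the other circadian genes, and had fewer sites for the length they covered. The median length of a member was 34.7 kb (quartiles 15.0 to 80.5), against 22.7 kb (quartiles 9.33 to 49.3) for the other circadian genes. The mean number of ZT0 sites in a window was 1.64 for members and 1.63 for the others, but windows of members are wider. Per megabase of window there were 9.32 ZT0 and 6.24 ZT12 sites around members, against 11.4 and 7.83 around the other circadian genes. Genes peaking at ZT12 had nearly the density of members, 9.64 and 6.53, and protein-coding genes a lower density, 8.57 and 5.91. Without Fgfr2, the longest member, the densities were 9.48 and 6.35.

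The sites lay more often beside the members than inside them. At ZT0 there were 11.2 sites per megabase in the 50 kb upstream, 5.42 in the gene bodies and 13.4 in the 50 kb downstream. At ZT12 the densities were 7.82, 3.59 and 8.65. Around the other circadian genes the order was the same, with 12.9, 6.80 and 13.8 at ZT0. A site in the gene body itself was found for 95 members at ZT0 (27.9%, interval 23.4 to 32.9%) and 67 at ZT12 (19.7%), against 22.9% (interval 20.3 to 25.7%) and 16.1% of the others.

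From the starts of members, the median distance to a listed site was longer than from the starts of the other circadian genes pooled, and shorter than from those of protein-coding genes. The median distance to the nearest ZT0 site was 39.2 kb (quartiles 12.3 to 109, 95% interval of the median 29.9 to 47.4 kb), against 29.1 kb (26.8 to 33.3 kb) for the others. To the nearest ZT12 site it was 56.6 kb (quartiles 17.4 to 191, 46.2 to 77.3 kb), against 46.0 kb (39.6 to 52.4 kb). The intervals of the medians overlap in both lists. Genes peaking at ZT12 were close to the members, with medians of 34.7 and 59.1 kb, and protein-coding genes stood at 47.7 and 76.1 kb. A ZT0 site was the nearer for 240 members (70.6%) and a ZT12 site for 84 (24.7%), against 69.4% and 27.1% of all circadian genes.

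By distance, fewer members than other circadian genes had their nearest ZT0 site at 20 to 50 kb, 21.8% against 26.6%, and more had it beyond 200 kb. Over 200 kb from any ZT0 site were 48 member starts (14.1%, interval 10.8 to 18.2%), against 9.41% (interval 7.68 to 11.5%) of the others. At ZT12 the count was 80 (23.5%, interval 19.3 to 28.3%), against 15.9% (interval 13.6 to 18.4%). Among genes peaking at ZT12 these shares were 11.3% and 19.9%, and among protein-coding genes 22.8% and 29.8%, so member starts were less often remote than those of protein-coding genes in general. Within 1 kb of the start, 34 members had a ZT0 site, which is the background share of 10.0%. At ZT12 there were 27 (7.94%), where 7.10% of all circadian genes had a site this close. Within 10 kb the shares were 20.9% of members and 24.0% of the others at ZT0, and 15.6% and 16.4% at ZT12.

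**Figure D2:**
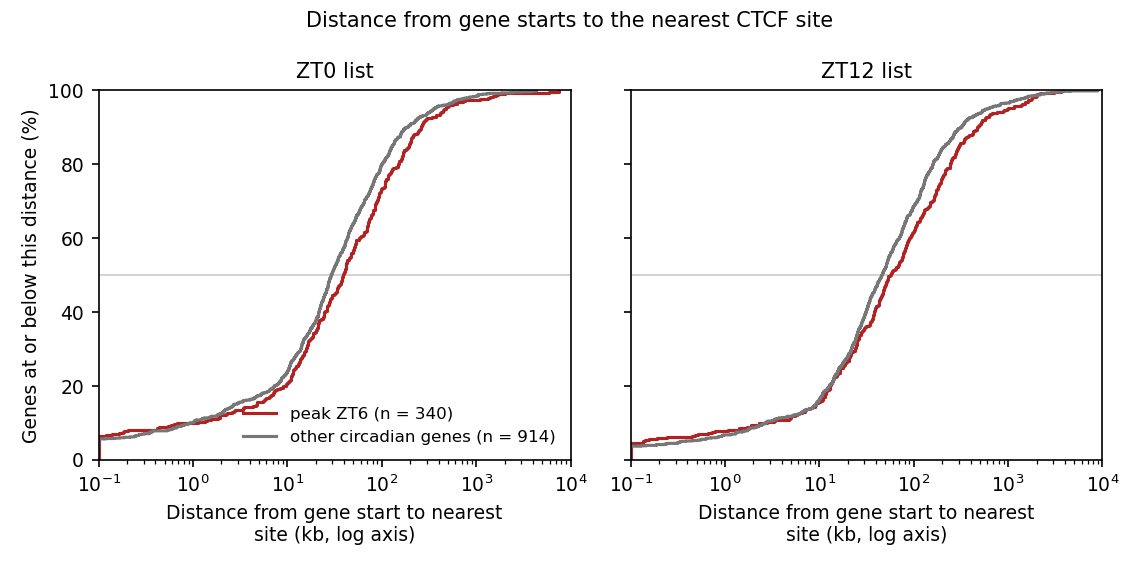
Cumulative percentage of genes against the distance from the gene start to the nearest CTCF site, on a log axis in kb, for 340 members and 914 other circadian genes, with distances under 0.1 kb drawn at 0.1 kb. At 10 kb the curves of members and others stand at 20.9 and 24.0% in the ZT0 list and at 15.6 and 16.4% in the ZT12 list. At 50 kb they stand at 56.8 and 64% and at 47.4 and 51.9%. The medians are 39.2 and 29.1 kb in the ZT0 list and 56.6 and 46.0 kb in the ZT12 list.

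Gene length was associated with the distance. Among members of up to 10.6 kb, the shortest of 4 classes made by the quartiles of length of all circadian genes, 42 of 56 had a ZT0 site and the median distance was 15 kb, against 201 of 258 and 19 kb of the others in that class. Among members of 25.2 to 55.1 kb, 54 of 89 had a ZT0 site (60.7%, interval 50.3 to 70.2%) and the median was 60.7 kb, against 66.2% (interval 59.8 to 72.1%) and 41.3 kb. Between 10.6 and 25.2 kb the medians were 24.4 kb for members and 24.8 kb for the others, and above 55.1 kb they were 65.6 and 54.1 kb. In the ZT0 list the longer distance of members was thus seen in the classes above 25.2 kb. In the ZT12 list the medians of members, from the shortest class to the longest, were 16.7, 37, 84.9 and 85.3 kb, against 29, 33.9, 60 and 79.7 kb.

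Stretches without listed CTCF sites were longer around members than around the other circadian genes. The interval between the neighbouring ZT0 sites that held a member's start had a median of 215 kb (quartiles 89.6 to 490), against 174 kb for the other circadian genes. For ZT12 sites the medians were 355 and 289 kb. Of the pairs of circadian genes that shared a ZT0 interval and included a member, 14 joined members to each other (17.1%). The other 68 joined a member to a gene of another peak time or a left-out gene. For ZT12 intervals the counts were 20 (17.7%) and 93. Members were 27.1% of circadian genes, which is a share of genes and not of pairs, so the pair shares cannot be read against it. The share of pairs to be expected was not computed. Several of the ZT0 pairs came from an interval of 32750 kb on chromosome X, which held Gm5403 and Diap2. Among the pairs that joined members in both lists were Abcb11, the bile salt export pump, with Dhrs9, a retinol dehydrogenase. Another was Hsd17b2, which inactivates sex steroids, with Sdr42e1, and both pairs were chosen after their values were seen.

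The members with the most listed sites came from several functions. Fgfr2, a receptor for fibroblast growth factors, had 20 ZT0 and 13 ZT12 sites, but its annotated body spans 3009 kb in the list used, so the count covers a long stretch of chromosome 7 and other genes. All other members had at most 7 ZT0 sites. Gpatch8 was among those with 7 ZT0 sites, and had 5 ZT12 sites. Wdtc1 had 6 in both lists. Junb, a subunit of the AP-1 factor, Accs and the protein-coding gene 9430023L20Rik each had 6 ZT0 sites, with 4, 4 and 5 at ZT12. Gltscr2, a nucleolar protein of ribosome assembly, had 6 and 5. The autophagy genes Atg2a and Calcoco1 each had 6 ZT0 and 3 ZT12 sites.

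Junb shows how the lists differ around a short gene. Of its 6 ZT0 sites, 4 overlapped a ZT12 site, at 11.1 and 19.2 kb upstream and 41.1 and 49.6 kb downstream of the start. The remaining sites, 29.0 and 34.5 kb upstream, were in the ZT0 list only. Thus the sites nearest to the gene on either side were present at both time points.

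The largest loss after Fgfr2 was at Thtpa, which encodes thiamine triphosphatase. It had 6 ZT0 sites and 1 ZT12 site, the latter 15.2 kb upstream and shared between the lists. The other 5 ZT0 sites were downstream, at 3.38, 6.95, 19, 27.1 and 53.6 kb, with no counterpart at ZT12. A further 10 members had 3 sites fewer. Of those that went from 4 sites to 1, the first by name were Mta1, a subunit of the NuRD complex, Rpl22, a protein of the large ribosomal subunit, and 2610301G19Rik. At Rpl22 the shared site was 42.2 kb upstream, and a ZT0 site 6.59 kb upstream had no counterpart.

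The only member that gained more than 1 site was Slc24a6, a sodium-calcium exchanger of mitochondria. It had 1 ZT0 and 3 ZT12 sites, of which the site 5.54 kb upstream was shared, and those 45.8 kb upstream and 11.5 kb downstream were in the ZT12 list only. Abtb1, Chic2, Herc4, a ubiquitin ligase, and Ccdc109a, the pore of the mitochondrial calcium uniporter, had no ZT0 site and 1 ZT12 site each. At Ccdc109a this site lay in an intron 165 kb downstream of the start. None of these single-site differences could be set against values for single replicates.

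At other members most sites were in both lists. Cirbp, a cold-inducible RNA-binding protein, had 5 sites in each list, and 4 of them overlapped, at 24.4, 20.2, 17.0 and 0.549 kb upstream in the ZT0 list. Its site without a counterpart was 33.5 kb downstream at ZT0 and 9.57 kb downstream at ZT12. Hmga1, an architectural chromatin protein, had 3 sites in each list and all overlapped. Trp53, the p53 tumour suppressor, likewise had 3 shared sites, the nearest 0.625 kb upstream at ZT0 and 0.665 kb at ZT12. Sbf2, a myotubularin-related protein, had 4 ZT0 and 3 ZT12 sites, with a shared site 15.3 kb upstream.

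**Figure D3:**
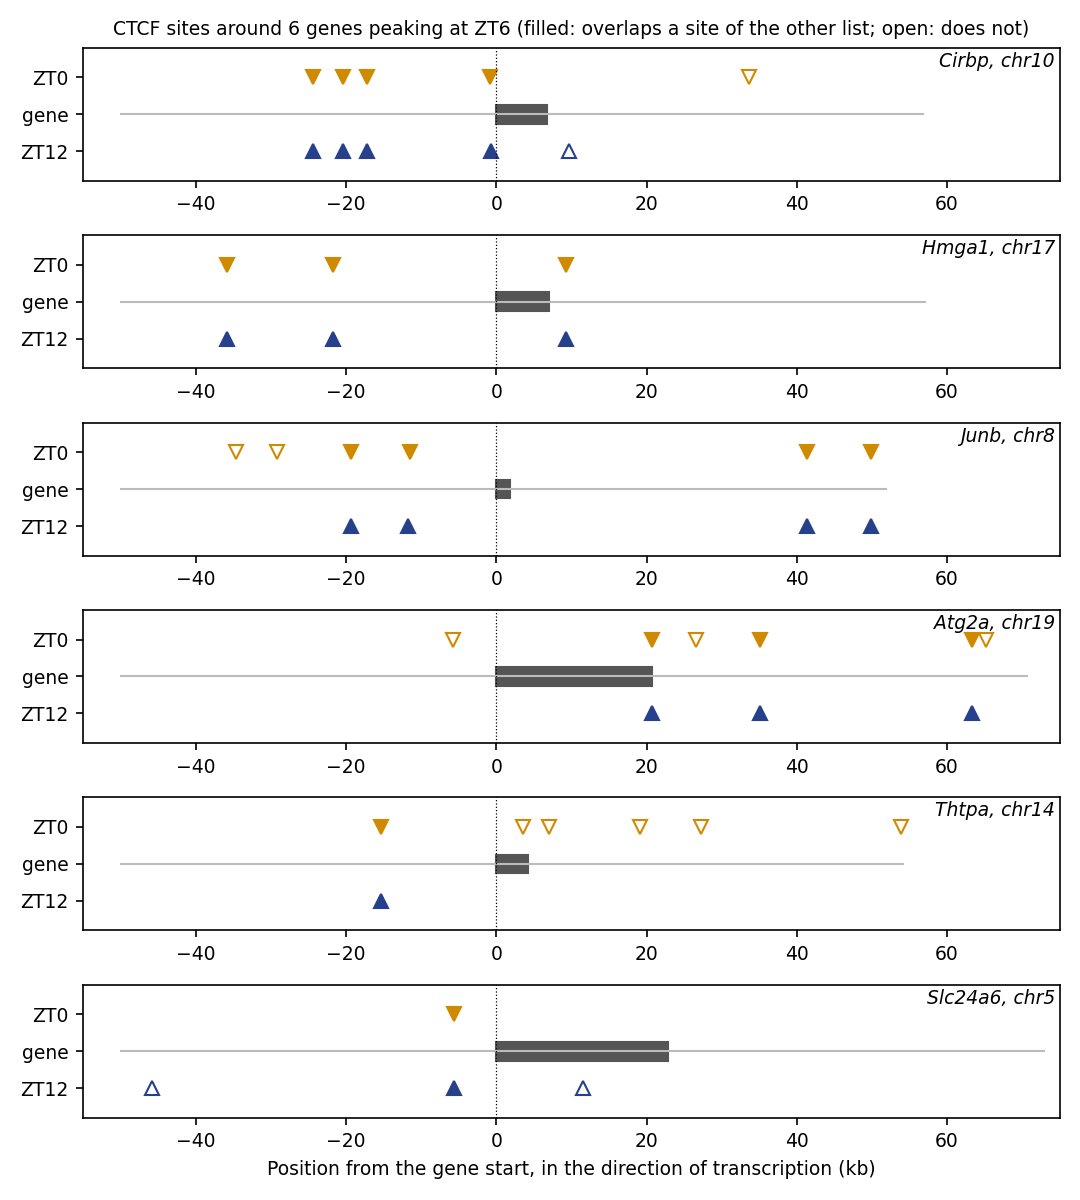
Positions of listed CTCF sites in the gene body extended by 50 kb for 6 of the named genes, in kb from the gene start along the direction of transcription, with ZT0 sites above and ZT12 sites below the gene. Filled markers overlap a site of the other list and open markers do not, so that Hmga1 shows 3 shared sites, Thtpa shows 5 ZT0 sites without a counterpart and Slc24a6 shows 2 such ZT12 sites.

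Some members were remote from any listed site, which does not show that they lack CTCF. Among autosomal members, the nearest site of either list was farthest for Plscr1, a phospholipid scramblase, at 2043 kb in both lists. Cul3, the scaffold of a family of ubiquitin ligases, was 1616 kb away in both. Ptbp2, a splicing regulator, was 1321 kb from a ZT0 site and 1380 kb from a ZT12 site, and Gm6907 was 1389 kb from both. Crot, which hands medium-chain acyl groups from peroxisomes to carnitine, was 1085 and 3033 kb away, and Dsc2, a desmosomal cadherin, 755.8 and 755.9 kb.

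On chromosome X none of the 9 members had a site within 50 kb in either list, while the 14 other circadian genes there included 6 with a listed site at ZT0, of which 1 also had a site at ZT12. Of 932 protein-coding genes on that chromosome, 127 had a ZT0 and 51 a ZT12 site, and the lists hold 75 ZT0 and 43 ZT12 sites there. Of the members named by distance, Diap2, a formin, Dlg3, a synaptic scaffold, Gm5403 and Gm9435 lie there, with Dlg3 718.8 kb from a ZT0 site and 914.2 kb from a ZT12 site. Whether every called site of chromosome X is in the lists was not tested.

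Grouped by function, 13 members carry autophagy and mTOR signalling. Of these, 11 had a ZT0 and 10 a ZT12 site, where 69.1% and 56.2% of all members did, none had a site within 1 kb of the start, where 10.0% and 7.94% of all members did, and the median distance was 27.7 kb in both lists. Mtor itself had 1 site in each list, 18.4 and 18.5 kb from the start, and Ulk1, the kinase that starts autophagosome formation, had 2 ZT0 and 1 ZT12 site. Pik3c3, the lipid kinase Vps34, had 1 ZT0 site 92.9 kb downstream and a nearest ZT12 site at 1494 kb. Mtor and Ulk1 were chosen after their values were seen.

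Among 15 transcription factors and cofactors, 13 had a ZT0 and 10 a ZT12 site, beside 69.1% and 56.2% of all members. Only Hbp1, a transcriptional repressor 341.4 kb from a ZT0 site and 194.0 kb from a ZT12 site, and Zbtb10, a zinc finger protein named for having none, had neither. Of the 15 genes of chromatin, 11 and 8 had sites, to be read against the same shares. Epc2, a subunit of a histone acetyltransferase complex, had none, with 1696 kb to the nearest ZT0 site and 283.0 kb to the nearest ZT12 site.

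Rad21, the kleisin subunit of the cohesin ring, is itself a member and had no site in either list. Its start was 92.2 kb from the nearest ZT0 site and 79.6 kb from the nearest ZT12 site. Of 10 genes for CTCF, cohesin and its loaders and releasers, 8 had a site in both lists, and 6 had a ZT0 site within 1 kb of the start, where 45.4% and 7.04% of protein-coding genes did. Ctcf had 4 ZT0 and 3 ZT12 sites, with the nearest 0.011 kb away, and a site lay across the starts of Pds5b and Stag2. Smc1a shared the absence of sites with Rad21. Of the 10, only Rad21 is in the authors' list of circadian genes.

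Of the functional groups, membrane traffic showed the widest difference between the lists in the share of members with a site. Of 23 such members, 19 had a ZT0 and 12 a ZT12 site, 13 had fewer ZT12 than ZT0 sites and none had more, where 42.9% and 6.18% of all members did. Smap2, a regulator of Arf proteins, had 5 and 4 sites and Stx8, an endosomal SNARE, none, at 289.7 kb in both lists. The 22 genes of lipids, bile acids and peroxisomes gave 16 and 11 with a site, with 11 members below and 5 above their ZT0 count at ZT12, to be set beside the same 42.9% and 6.18%. Abca2, a lipid transporter, had the most, 5 and 4 sites, and Crot was the most remote.

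The 18 genes of other metabolites and their transport gave 13 and 12 with a site (72.2% and 66.7%), where all members gave 69.1% and 56.2%. Aspg, an asparaginase, had 5 and 4 sites, while Phka2, the liver form of a phosphorylase kinase subunit on chromosome X, was 513.8 kb from both lists. Of the 20 genes of ubiquitin and the proteasome, 13 and 9 had a site (65.0% and 45.0%), with 5 and 3 at Fbxo21. Of the 24 receptors, kinases and signalling proteins, 15 and 13 had one (62.5% and 54.2%), and Fer, a tyrosine kinase, was among those without, 449.5 and 449.4 kb away.

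Of the 9 genes of translation, 3 had a ZT0 and 3 a ZT12 site, against 69.1% and 56.2% of all members, and the median distances were 109 and 107 kb, against 39.2 and 56.6 kb. Eif4b, an initiation factor, had 3 sites in each list, whereas Aimp1, a scaffold of the aminoacyl-tRNA synthetase complex, was 626.0 kb from both. The 24 RNA-binding and RNA-processing genes gave 16 and 13 with a site (66.7% and 54.2%), and 4 had one within 1 kb in each list, where 10.0% and 7.94% of all members did. The 9 genes of DNA repair and telomeres gave 6 and 4 (66.7% and 44.4%), with 1 site in the ZT0 list only at Nsmce2, a SUMO ligase of the SMC5/6 complex. The groups hold few genes, and no test of a group was made.

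Counted once each, 539 ZT0 and 359 ZT12 sites lay near members, 5.33% and 5.28% of their lists. Of the ZT0 sites near members, 322 overlapped a ZT12 site (59.7%, interval 55.5 to 63.8%), where 56.2% of all ZT0 sites did. In the ZT12 list, 322 of the sites near members had a ZT0 counterpart (89.7%, interval 86.1 to 92.4%), where 83.6% of all did. Near the other circadian genes the shares were 59.4% (interval 56.7 to 62.0%) and 86.1% (interval 83.7 to 88.2%). Shared ZT0 sites were wider than those without a counterpart, with medians of 359.5 and 283 bp near members, 366 and 281 bp near the other circadian genes and 346 and 277 bp over the whole list.

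More of the sites near members than of all sites were at promoters, as near other circadian genes. Their midpoint was within 1 kb of an annotated transcript start for 27.8% of the ZT0 sites (interval 24.2 to 31.8%), against 20.4% of all ZT0 sites and 27.8% of those near the other circadian genes. Another 33.0% lay in introns, 6.31% in other exons and 32.8% between genes, against 30.8%, 5.49% and 43.3% of all ZT0 sites and 28.7%, 7.62% and 35.9% of those near the other circadian genes. The windows were built on genes, so more sites at promoters and fewer intergenic sites than in the whole list follow from their construction.

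The recognition sequence was read from the mm9 genome within each site. The core CCNNNAGGNGGC, searched on both strands, occurred in 215 of the ZT0 sites near members (39.9%, interval 35.8 to 44.1%), in 35.9% of all ZT0 sites and in 1.86% of regions of equal length 5 kb from the sites near members. A weight matrix of 19 bp, learned on ZT0 sites of odd or even chromosomes and applied to the others, with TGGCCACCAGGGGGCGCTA as the most frequent bases of either version, gave a median best score of 17.8 near members and 17.7 over all ZT0 sites. In the ZT12 list the core was in 43.5% of the sites near members (interval 38.4 to 48.6%) and in 36.2% of all sites (interval 35.1 to 37.4%). Of the ZT0 sites near members, 65.5% (interval 61.4 to 69.4%) scored above 16.4, which 1% of regions 5 kb away pass, against 63.5% of the remaining ZT0 sites. At ZT12 the shares were 69.9% (interval 65.0 to 74.4%) and 65.4%. Near the other circadian genes the core was in 37.1% of ZT0 sites and in 37.7% of ZT12 sites (interval 34.6 to 40.9%), and these intervals overlap those near members. The lists carry a label for a motif search, and the matrix was learned on ZT0 sites. Whether the contrast with regions 5 kb away follows from this was not tested.

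The best matches at the sites that flank a member's start were read for their direction. For the 320 members with a ZT0 site on either side and none across the start, the matches pointed towards each other in 96 (interval 25.2 to 35.2%), away from each other in 83 (25.9%) and the same way in 141 (44.1%). For the other circadian genes, 26.6% (interval 23.8 to 29.6%) pointed towards each other. At ZT12 the shares were 28.7% and 26.0%. The intervals overlap, and a match was taken at every site whatever its score.

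A site of either list was within 1 kb of the start in 35 members, of which 26 had it in both lists, 8 in the ZT0 list only and 1 in the ZT12 list only. It lay across the start itself in 21, and in 14 of them in both lists. Of the 21, those first by name were 2310003H01Rik, 4930523C07Rik, Abca2, Abca3, Amdhd1, Ankrd44, C130074G19Rik, Crbn, E130311K13Rik and Hs1bp3. Among these, 2310003H01Rik, 4930523C07Rik, C130074G19Rik and Crbn had it across the start in the ZT0 list only. Abca3 exports phospholipids and Amdhd1 degrades histidine. Scap, the escort of the SREBP factors that drive sterol and lipid synthesis, also had a site across its start at both time points, and was added after its values were seen.

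The sequences of 6 of these sites are given because they show matches of differing score and both kinds of site, shared and not. Each is the best match in capitals, 19 bases long, with equal flanks in lower case, 5′ to 3′ on the strand of the match. Abca2 and Hs1bp3 had a site across the start in both lists, and Cirbp had a shared site 0.549 kb upstream. Crbn, the substrate receptor of a ubiquitin ligase, had a site across the start in the ZT0 list only, with the nearest ZT12 site at 1608 kb. Amacr, a racemase of branched-chain fatty acid oxidation, had its ZT0 site 0.185 kb from the start, and Klhl24, a Cul3 adaptor, was the only member with such a site in the ZT12 list only. Amacr and Klhl24 were chosen after their values were seen. All windows lie outside annotated exons.
Abca2, chr2:25284011-25284109, minus strand: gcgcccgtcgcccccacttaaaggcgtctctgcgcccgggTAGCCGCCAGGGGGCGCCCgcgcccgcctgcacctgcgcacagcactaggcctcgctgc
Hs1bp3, chr12:8320112-8320210, plus strand: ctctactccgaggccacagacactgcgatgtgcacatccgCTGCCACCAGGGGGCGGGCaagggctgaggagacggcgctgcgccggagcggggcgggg
Cirbp, chr10:79627941-79628039, minus strand: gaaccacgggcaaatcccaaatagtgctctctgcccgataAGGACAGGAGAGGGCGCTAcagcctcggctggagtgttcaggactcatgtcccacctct
Crbn, chr6:106750102-106750200, minus strand: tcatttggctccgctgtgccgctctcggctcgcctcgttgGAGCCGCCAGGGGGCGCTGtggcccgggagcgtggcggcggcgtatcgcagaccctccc
Amacr, chr15:10911203-10911301, minus strand: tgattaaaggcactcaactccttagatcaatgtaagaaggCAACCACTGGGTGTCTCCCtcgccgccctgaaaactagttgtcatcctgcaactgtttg
Klhl24, chr16:20097454-20097552, minus strand: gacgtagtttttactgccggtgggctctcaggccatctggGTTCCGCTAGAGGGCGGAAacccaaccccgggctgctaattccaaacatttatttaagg
The match scored 21.7 at Abca2, 21.0 at Hs1bp3, 15.9 at Cirbp, 20 at Crbn, 7.88 at Amacr and 15.2 at Klhl24. A high score was thus found both at sites of both lists and at the ZT0 site of Crbn. Taking the nearest ZT0 site of each of the 34 members with a site within 1 kb, 16 scored above 16.4, and the match lay on the strand of the gene in 18 and on the opposite strand in 16.

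The promoters of members, from 250 bases before to 50 after the start in mm9, were searched for the core and for clock elements on both strands. The core CCNNNAGGNGGC was in 25 promoters (7.35%, interval 5.03 to 10.6%), against 5.36% (interval 4.08 to 7.02%) of the other circadian genes and 3.96% of protein-coding genes. Of these 25 members, 8 had a ZT0 site within 1 kb of the start (32.0%, interval 17.2 to 51.6%) and 4 a ZT12 site, while 26 of the 315 members without the core had a ZT0 site there (8.25%, interval 5.69 to 11.8%). With the core in the promoter, a ZT0 site within 1 kb was found for 36.7% of the other circadian genes and 32.6% of protein-coding genes, and without it for 8.55% and 5.98%. At ZT12 the shares with the core were 16.0% of members (interval 6.4 to 34.7%) and 30.6% of the others (interval 19.5 to 44.5%). Without the core they were 7.3% (interval 4.91 to 10.7%) and 5.43% (interval 4.11 to 7.15%), so the intervals of members overlap at ZT12. A promoter with the core had a listed site more often than one without it in all of these groups. The lists carry a label for a motif search, so sites may have been listed for their motif. Whether the difference follows from this was not tested.

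The E-box CACGTG, which the clock activators bind and which reads the same on both strands, was in 37 member promoters (10.9%, interval 8.00 to 14.6%), in 13.2% (interval 11.2 to 15.6%) of the other circadian genes and in 7.79% of protein-coding genes. The D-box TTATGTAA was in 2 member promoters (0.588%), in 0.875% of the other circadian genes and in 0.926% of protein-coding genes. The element TAGGTCA, bound by the Ror and Nr1d receptors, was in 5 (1.47%), in 1.42% of the other circadian genes and in 2.42% of protein-coding genes. A match is a description of the sequence only.

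An E-box and a CTCF site within 1 kb of the start met in Scap, Thumpd2 and Trp53. Thumpd2, an RNA methyltransferase-like protein chosen after its values were seen, had both in the 250 bases before its start, with the site across the start in both lists. Its sequence is printed 5′ to 3′ towards the start, with the best match to the matrix, which scored 7.99, and the E-box in capitals.
Thumpd2, chr17:81464426-81464675, minus strand: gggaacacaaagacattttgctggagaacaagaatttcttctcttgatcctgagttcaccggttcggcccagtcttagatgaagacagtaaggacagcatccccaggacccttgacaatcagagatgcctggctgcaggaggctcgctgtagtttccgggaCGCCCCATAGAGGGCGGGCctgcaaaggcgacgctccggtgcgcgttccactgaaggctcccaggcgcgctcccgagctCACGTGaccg
The last base of the E-box is 5 bases before the first base of the gene, and that of the matrix match 71 bases.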

How the data were processed

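ChIP-seq peaks of CTCF from 4 liver samples were used. As the authors describe it, Bowtie2 placed the reads on NCBIM37/mm9, SAMtools kept those of sufficient mapping quality, Picard took out duplicates, and peaks came from MACS2 at its defaults. The deposited lists are labelled for FIMO and for both replicates, and how replicates were combined is not given in the sources used here. The starts in the lists were raised by 1 base to give 1-based inclusive mm9 coordinates.

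Peak times and gene coordinates were taken from the authors' list of circadian genes, made from RNA-seq without the CTCF data. The authors describe both the RNA and the CTCF samples as coming from the livers used for Hi-C. Of 340 members, 339 matched a GENCODE M1 gene and 331 had identical coordinates. Genes listed in more than 1 row were counted once. A site was shared when it overlapped the other list by at least 1 bp. Distances ran from the gene start to the nearest edge of a site. Motifs were scored with a matrix learned on chromosomes of the other parity. Functional lists held 188 members.

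Genes were named by rule: the 10 with most ZT0 sites, the 10 nearest to and the 10 farthest from a site (ties by name), the 5 largest losses and gains (ties by share of sites, then by name), in each of 11 functional lists the member with most sites and the most remote, Rad21 and Sbf2. A gene chosen by this rule is not reported here. Members and lists were chosen with earlier results of these data known. No test was run, because each time point has 1 list. The counting steps were tested on simulated sites. Python 3.11.15, pandas 2.3.3, NumPy 2.4.6, SciPy 1.17.1, pysam 0.24.0 and matplotlib 3.10.9 were used.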

Additional observations from a re-analysis of the deposited data

How the results depend on the processing

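The membership shares followed the window. The share of members with a ZT0 site was 43.2% with the gene body extended by 10 kb, 79.4% with 100 kb and 56.8% within 50 kb of the start alone, where 64.0% of the other circadian genes had one. For ZT12 these values were 31.5%, 67.6% and 47.4%. A narrower window holds fewer sites by construction.

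Keeping only sites of at least 300 bp lowered the shares to 52.9% and 35.9% and raised the median distances to 68.9 and 154 kb. It also lowered the shared fraction near members to 43.0% of ZT0 and 77.1% of ZT12 sites, with both lists shortened. Near the other circadian genes these fractions were 42.0% and 78.7%, so at ZT12 the fraction near members was no longer the higher. In the 34 members marked as rhythmic at introns, 61.8% had a ZT0 site, the median ZT0 distance was 48.4 kb and 84.2% of ZT12 sites were shared. Requiring an overlap of 50% of both sites gave 83.6% of ZT12 sites.

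The other 34 of 50 alternative values stayed within the interval of the main value or, for the 2 sums of sites, which have no interval, changed little. They include autosomes only, the clock genes added back, distances to site midpoints or to the nearest transcript start and, chosen after seeing the data, protein-coding members only and the sums of sites without Fgfr2 (536 and 359). The share of members with a site was below that of the other circadian genes in 16 of 18 settings. The exceptions were the ZT0 list with 10 kb (43.2 against 42.7%) and the ZT12 list in intron-rhythmic members (58.8 against 56.2%). The median distance of members was above that of the others in 15 of 16 settings, the exception being ZT12 in intron-rhythmic members (48.7 against 65.7 kb).

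No paired analysis was possible because each list joins both replicates and no test was run. For the same reason no replicate could be left out. The lists carry no peak height, so a site missing from a list may lie just under the threshold of the caller, and read depth is unknown. Windows of 33 members overlap another member's window, and 15 ZT0 sites are near more than 1 member.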
